A study of Mus musculus with 6 samples.

Results

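The oxidative phosphorylation subunits are the nuclear-encoded proteins of the 4 respiratory chain complexes and the ATP synthase in the inner mitochondrial membrane. Genes were taken by symbol (the Ndufa, Ndufb, Ndufc, Ndufs and Ndufv numbers, Sdha to Sdhd, the Uqcr genes, Cyc1, the Cox4 to Cox8 genes and the Atp5 genes, without pseudogenes), with 1 probe set a gene, namely the brightest on average of those annotated to that gene alone. This gave 82 of the 18193 genes measured: 35 of complex I, 4 of complex II, 9 of complex III, 17 of complex IV and 17 of complex V. Ndufa11, Ndufs6, Ndufb4b and Ndufb4c, which have only probe sets shared with another gene, and Cox7b, to which no probe set was assigned, were not analysed here.

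RNA came from the fetal liver (FL), the main blood-forming organ of the mouse embryo, at E14.5. There were 3 Pogz-/- (Pogz-KO) livers, which lack the zinc-finger protein POGZ throughout the embryo, and 3 Pogz+/+ (Pogz-WT) livers, all on a C57BL/6 background reached by more than 10 backcrosses. Livers were minced and strained to single cells with no sorting, so each array averages erythroid, myeloid and hepatic cells. In such bulk RNA, fewer cells of a type and less RNA per cell cannot be told apart. RNA was labelled from its 3' end and hybridized to Affymetrix mouse expression arrays.

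Complex I (NADH dehydrogenase) and complex II (succinate dehydrogenase) pass electrons to ubiquinone, complex III (cytochrome bc1) passes them to cytochrome c, and complex IV (cytochrome c oxidase) passes them to oxygen. The proton gradient built on the way drives complex V, the ATP synthase. Developing erythroid cells rely on mitochondria for heme synthesis and clear them as they mature. Several complex IV subunits exist as paired isoforms, one of them typical of heart and skeletal muscle or testis.

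The members were among the brightest genes on the arrays. Their median percentile of mean signal was 97.4, 68 of 82 lay in the brightest 10%, and 6 had a mean log2 signal under 6. Brightness here is that of a probe set and does not rank transcripts against each other. Pogz itself had log2 signals of 9.16, 9.22 and 9.33 in Pogz-/- livers, against 9.17, 9.03 and 8.95 in Pogz+/+ livers. The position of its probe set relative to the deleted part is not known here, so this does not check the genotypes, which are those of the labels.

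Replicate 1 of Pogz+/+ stood apart from the other arrays. Its correlation with them over all probe sets was 0.794 to 0.810, against 0.884 to 0.906 among the other 5 arrays. The 3' to 5' signal ratio of the Actb control, which rises when RNA or labelled target is shorter, was 3.72 to 4.09 in Pogz-/- arrays and 52.3, 5.50 and 6.63 in Pogz+/+ replicates 1, 2 and 3. That of Gapdh was 4.87 to 5.08 in Pogz-/- arrays, against 15.3, 7.37 and 9.29 in Pogz+/+ arrays. For both controls the Pogz-/- arrays lay below all Pogz+/+ arrays (p = 0.1 by a two-sided exact permutation test, the smallest that 3 arrays against 3 allow). The median intensity was 29.7 to 31.6 in Pogz-/- arrays and 36.0 to 54.3 in Pogz+/+ arrays, at one common trimmed mean. The part of these differences in the results was not tested. Results are therefore given over all 6 arrays and without Pogz+/+ replicate 1, and in the second case under 2 further scalings: quantile normalization, and subtraction of each array's median (centring).

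Over all 6 arrays no member passed limma at an adjusted p under 0.05, as was the case for 0% of all genes. At an unadjusted p under 0.05, 5 members were higher and 4 lower in Pogz-/- livers, while 13.1% of all genes reached that level in either direction. With a variance trend and robust fit, 12 members were higher and 20 lower at an unadjusted p under 0.05, against 7.15% and 10.6% of all genes. In the brightest 10% these were 9 and 19 of 68 members, and 255 and 413 of 1820 genes. After adjustment 0 members passed, against 0.121% of all genes. The methods' t-test gave 6 higher and 7 lower unadjusted (all genes: 4.81% and 8.45%) and 0 adjusted. The median log2 fold change (Pogz-/- over Pogz+/+) was -0.15 for the members and -0.17 for all genes.

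In 15 members all Pogz-/- arrays were above all Pogz+/+ arrays, and in 28 they were all below. The shares were 18.3% and 34.1% of the members, against 10.8% and 16.3% of all genes. Among the 1820 genes of the brightest 10%, 20.8% were above and 30.4% below, and among the 68 members in it 17.6% were above and 41.2% below. Complex V had 7 genes above and 6 below, complex I 6 above and 16 below, and complex IV 1 above and 5 below. Complex III had 1 in each direction, and complex II had none.

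Without Pogz+/+ replicate 1, with trend and robust, 5 members rose and 9 fell, or 14 of 82. Of all genes, 2.41% rose and 2.07% fell in the same fit. Of these 14, Ndufa8 and Ndufs4 changed by at least 1.5-fold. In the brightest 10%, which holds 68 of the members, 3 members rose and 9 fell, against 6.48% and 13.8% of its 1820 genes, so the share of falls among the members was near that of equally bright genes. The plain limma fit on the same 5 arrays called 0 members, with 5 higher and 7 lower at an unadjusted p under 0.05 (all genes: 5.53% and 7.58%). After quantile normalization 9 members rose and 2 fell (all genes: 2.07% and 1.66%), of which 7 and 2 lay in the brightest 10% (6.81% and 9.29% of its genes). After median centring 16 members rose and 0 fell (all genes: 10.1% and 0.55%). Of these, 14 lay in the brightest 10%, where 487 of the 1820 genes rose and 44 fell. As deposited, 8 members rose and 15 fell with a filter on dim probe sets (8.26% and 6.79% of the 8399 genes kept). With the mean of all probe sets of a gene, 2 members rose and 2 fell (0.638% and 0.379% of all genes). The 5 that rose as deposited rose under both other scalings, whereas of the 9 that fell, only Ndufa5 and Ndufb11 fell after quantile normalization and none after centring. Centring moved the median of all genes to 0.18 from -0.10 as deposited, so it shifts every gene upward.

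**Figure D1:**
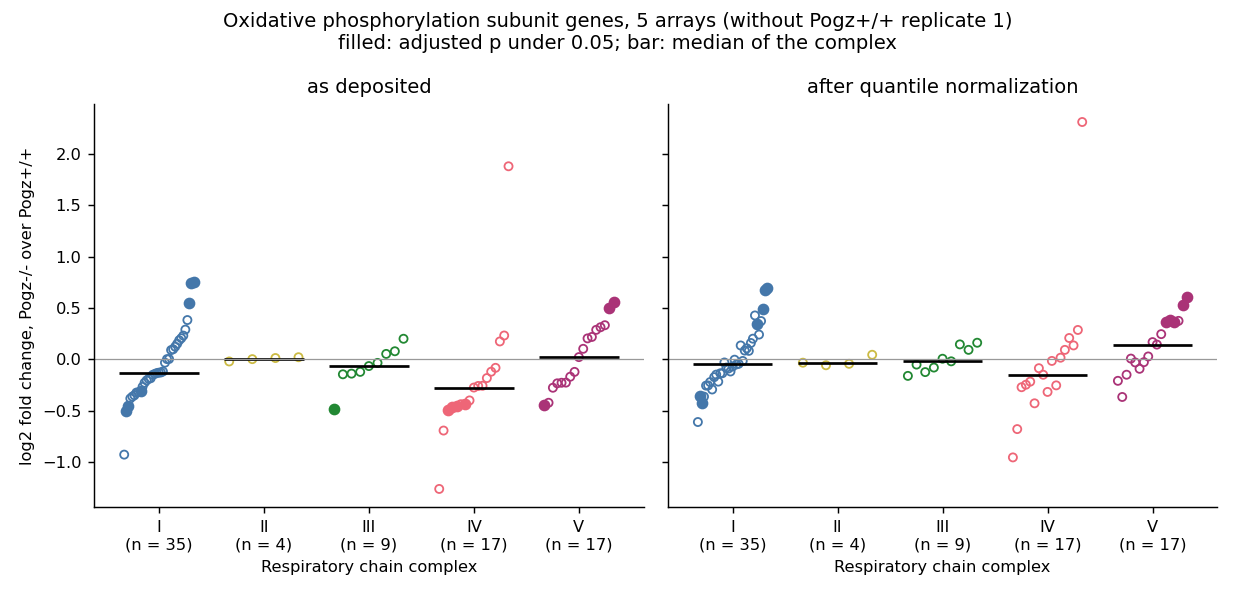
Log2 fold change (Pogz-/- over Pogz+/+, without Pogz+/+ replicate 1) of each of the 82 genes, grouped by complex and ordered within it by the change as deposited. Left, as deposited; right, after quantile normalization. Filled circles passed an adjusted p under 0.05 and bars are medians: 5 filled genes lie above 0 and 9 below on the left, 9 above and 2 below on the right.

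In complex I, the NADH dehydrogenase, 3 genes rose and 3 fell of 35. Ndufs1, the largest core subunit, which carries iron-sulfur clusters, had log2 signals of 9.83, 9.72 and 9.73 in Pogz-/- livers, against 8.23, 9.16 and 9.27 in Pogz+/+ livers. All Pogz-/- arrays lay above all Pogz+/+ arrays, and replicate 1 of Pogz+/+ was the lowest. The difference was 0.88 ± 0.33 (log2, SE) over 6 arrays (limma adjusted p = 0.371) and 0.55 ± 0.11 without replicate 1 (adjusted p = 0.0168).

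Ndufs4, an accessory subunit of the NADH-oxidizing arm whose loss causes Leigh syndrome in humans, had 9.52, 9.43 and 9.67 in Pogz-/- livers and 7.23, 8.69 and 8.91 in Pogz+/+ livers. It rose by 0.74 ± 0.13 without replicate 1 (limma adjusted p = 0.00832), against 1.26 ± 0.48 over 6 arrays (adjusted p = 0.371). Ndufa8, an accessory subunit on the intermembrane-space side, had 10.09, 10.40 and 10.28 in Pogz-/- livers and 8.70, 9.65 and 9.34 in Pogz+/+ livers. Its groups were apart as well, with a rise of 0.76 ± 0.13 without replicate 1 (adjusted p = 0.00832).

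Ndufb11, an X-linked accessory subunit of the membrane arm, had 12.30, 12.19 and 12.12 in Pogz-/- livers and 13.52, 12.78 and 12.64 in Pogz+/+ livers. It was lower in every Pogz-/- array, by 0.51 ± 0.08 without replicate 1 (limma adjusted p = 0.00687). Ndufa5, an accessory subunit near the base of the matrix arm, had 11.07, 10.74 and 10.99 in Pogz-/- livers and 12.06, 11.41 and 11.36 in Pogz+/+ livers, and fell by 0.45 ± 0.11 (adjusted p = 0.0349). Ndufc2, another membrane-arm subunit, fell by 0.31 ± 0.07 (adjusted p = 0.0376), but its probe sets disagreed, as given further on.

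Of the core subunits of complex I, 4 others named here did not pass in this fit. Their log2 differences without replicate 1 were -0.32 for Ndufs7 and -0.12 for Ndufs8, which both carry iron-sulfur clusters, -0.13 for the NADH-binding Ndufv1 and -0.32 for its partner Ndufv2. These are values of the brightest probe sets. The dimmer probe set of Ndufs7 had 0.39 ± 0.10, with all Pogz-/- arrays above all Pogz+/+ arrays and no call. Those of Ndufv1 had -0.09 and 0.13. A dimmer probe set rose in Ndufs8 and in Ndufv2, as given further on. Ndufs3, a further core subunit named after its values were seen, has 1 probe set and had 0.29 ± 0.10. All its Pogz-/- arrays were above all Pogz+/+ arrays, with no call (limma adjusted p = 0.153). Ndufb6, a membrane-arm subunit, had -0.38 (limma adjusted p = 0.0804), and its dimmer probe set had 0.40. Ndufa4, named for complex I but later assigned to complex IV, had 0.23 as deposited (adjusted p = 0.168) and 0.35 after quantile normalization (adjusted p = 0.0421). Its hypoxia-linked relative Ndufa4l2 was dim and uneven, with 5.61, 5.58 and 2.96 in Pogz-/- livers and 4.27, 3.67 and 5.35 in Pogz+/+ livers.

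Complex II, the succinate dehydrogenase, which also belongs to the tricarboxylic acid cycle, had no call in 4 genes under any of the fits without replicate 1. Sdha, the flavoprotein that oxidizes succinate, had 10.68, 10.56 and 10.53 in Pogz-/- livers and 10.93, 10.60 and 10.63 in Pogz+/+ livers. The difference without replicate 1 was -0.02 ± 0.09. For the iron-sulfur subunit Sdhb it was 0.02 ± 0.10, and for the membrane anchors Sdhc and Sdhd 0.01 ± 0.12 and 0.00 ± 0.11. Over 6 arrays Sdhc differed by 0.59 ± 0.52, with a single low array: 9.33, 9.13 and 9.24 in Pogz-/- livers and 7.49, 9.16 and 9.28 in Pogz+/+ livers.

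In complex III, 1 of 9 genes fell and none rose. Uqcrb, a small subunit next to the ubiquinone site, had 14.23, 13.96 and 14.01 in Pogz-/- livers and 15.57, 14.56 and 14.54 in Pogz+/+ livers. All Pogz-/- arrays were below all Pogz+/+ arrays, by 0.48 ± 0.08 without replicate 1 (limma adjusted p = 0.00687). After quantile normalization the difference was -0.16 (adjusted p = 0.267). This fall is that of the brightest probe set. The dimmer probe set of Uqcrb overlapped between genotypes. Without replicate 1 it had 0.03 ± 0.09 as deposited and 0.05 after quantile normalization.

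The electron-carrying subunits of complex III did not pass. Cytochrome c1, Cyc1, differed by -0.04 ± 0.10 without replicate 1, and the Rieske protein Uqcrfs1 by 0.20 ± 0.11. Uqcrfs1 had 10.49, 10.31 and 10.22 in Pogz-/- livers and 8.68, 10.20 and 10.08 in Pogz+/+ livers, the only complex III gene with all Pogz-/- arrays above, and by a narrow gap. The core proteins Uqcrc1 and Uqcrc2 differed by 0.08 ± 0.10 and -0.15 ± 0.10.

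Complex IV had the lowest median of the 5 complexes, -0.46 over 6 arrays, -0.28 without replicate 1 and -0.15 after quantile normalization, and 4 of 17 genes fell without replicate 1. In that order, these medians are the values of Cox6a2, Cox6b2 and Cox4i2. These are isoforms typical of other tissues, and none of them was called. Median centring put the complex IV median at -0.00 and left none of its genes fallen. Cox5a, a matrix-side subunit, had 12.91, 12.73 and 12.84 in Pogz-/- livers, against 13.70, 13.30 and 13.34 in Pogz+/+ livers. It fell by 0.49 ± 0.08 (limma adjusted p = 0.00501), and after quantile normalization differed by -0.27 (adjusted p = 0.0506).

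The other 3 that fell have paired isoforms: Cox6a1 and Cox7a2 are the forms found outside heart and skeletal muscle, and Cox6b1 is the general somatic form. Cox6a1 had 14.21, 14.21 and 14.08 in Pogz-/- livers and 15.93, 14.67 and 14.53 in Pogz+/+ livers. Cox6b1 had 13.66, 13.43 and 13.46 in Pogz-/- livers and 14.83, 13.9995 and 13.97 in Pogz+/+ livers. Cox7a2 had 13.63, 13.45 and 13.56 in Pogz-/- livers, against 14.87, 13.96 and 14.04 in Pogz+/+ livers. In each, every Pogz-/- array was below every Pogz+/+ array, with falls of 0.43, 0.47 and 0.45 without replicate 1 (limma adjusted p = 0.00608, 0.00737 and 0.00563). After quantile normalization these were -0.09, -0.25 and -0.22, and none passed.

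The widely expressed isoforms Cox4i1 and Cox8a did not pass: Cox4i1 differed by -0.18 ± 0.08 without replicate 1, and Cox8a, with all Pogz-/- arrays above, by 0.23 ± 0.09. The isoforms of other tissues were mostly dim. Cox4i2 (lung) had 4.38 to 5.37 in Pogz-/- arrays and 5.34 to 7.21 in Pogz+/+ arrays, and Cox7a1 (heart and muscle) had 1.35 to 5.09 in Pogz-/- arrays and 4.89 to 5.72 in Pogz+/+ arrays. Cox8b (heart and muscle), Cox7b2 and Cox8c (testis) and Cox6a2 (heart and muscle) overlapped between genotypes, with mean log2 signals of 2.90, 1.88, 6.97 and 6.89. The testis isoform Cox6b2 was brighter, with 9.97 to 10.39 in Pogz-/- arrays and 9.97 to 10.51 in Pogz+/+ arrays, and did not pass, nor did Cox7a2l, which takes part in supercomplex assembly. Markers of heart and skeletal muscle summed to 100.0 to 179 in Pogz-/- arrays and 169 to 218 in Pogz+/+ arrays, on the linear intensity scale.

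In complex V, the ATP synthase, 2 genes rose and 1 fell of 17. Atp5o, the protein that joins the peripheral stalk to the catalytic head, had 11.69, 11.58 and 11.69 in Pogz-/- livers and 10.47, 10.99 and 11.19 in Pogz+/+ livers. It rose by 0.56 ± 0.09 without replicate 1 (limma adjusted p = 0.00667) and by 0.61 after quantile normalization (adjusted p = 0.00452). Atp5g2, one of several genes for the same mature c subunit of the membrane ring, had 11.42, 11.27 and 11.36 in Pogz-/- livers and 9.98, 10.79 and 10.90 in Pogz+/+ livers. It was higher in every Pogz-/- array, by 0.50 ± 0.09 without replicate 1 (adjusted p = 0.0106).

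Atp5h, subunit d of the peripheral stalk, went the other way from Atp5o, its neighbour in the stalk, by its brightest probe set only. It had 13.34, 13.14 and 13.26 in Pogz-/- livers and 14.59, 13.70 and 13.68 in Pogz+/+ livers, a fall of 0.45 ± 0.07 (limma adjusted p = 0.00775). After quantile normalization Atp5h differed by -0.21 (adjusted p = 0.102). Its dimmer probe set had all Pogz-/- arrays above all Pogz+/+ arrays. That probe set had 0.20 ± 0.08 as deposited and 0.33 after quantile normalization, with no call. The other c subunit genes, Atp5g1 and Atp5g3, differed by 0.20 ± 0.09 and -0.23 ± 0.07 as deposited and did not pass.

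By their brightest probe sets, the subunits of the catalytic head and its central stalk were positive without replicate 1, except Atp5d. Atp5a1 (alpha) had 12.21, 12.09 and 12.15 in Pogz-/- livers and 11.82, 11.83 and 11.89 in Pogz+/+ livers. Its difference was 0.29 ± 0.08 without replicate 1 (limma adjusted p = 0.0656) and 0.38 after quantile normalization (adjusted p = 0.0149). Atp5b (beta, with the catalytic sites) had 0.22 as deposited and 0.36 after quantile normalization (adjusted p = 0.0191), and Atp5e (epsilon), named because it was called there, 0.31 and 0.37 (adjusted p = 0.0256). Atp5c1 (gamma, the rotor) had 0.02 ± 0.08. Atp5d (delta), named after its values were seen, had -0.17 ± 0.09, overlapped between genotypes and was positive with centring (0.10). Its dimmer probe set had 0.14 ± 0.10 as deposited and 0.13 after quantile normalization, and also overlapped. The dimmest probe set of Atp5a1 had -0.33 ± 0.21 as deposited, with no call. The membrane subunit Atp5l differed by 0.33 ± 0.10 and Atp5md by -0.42 ± 0.30, and neither passed.

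**Figure D2:**
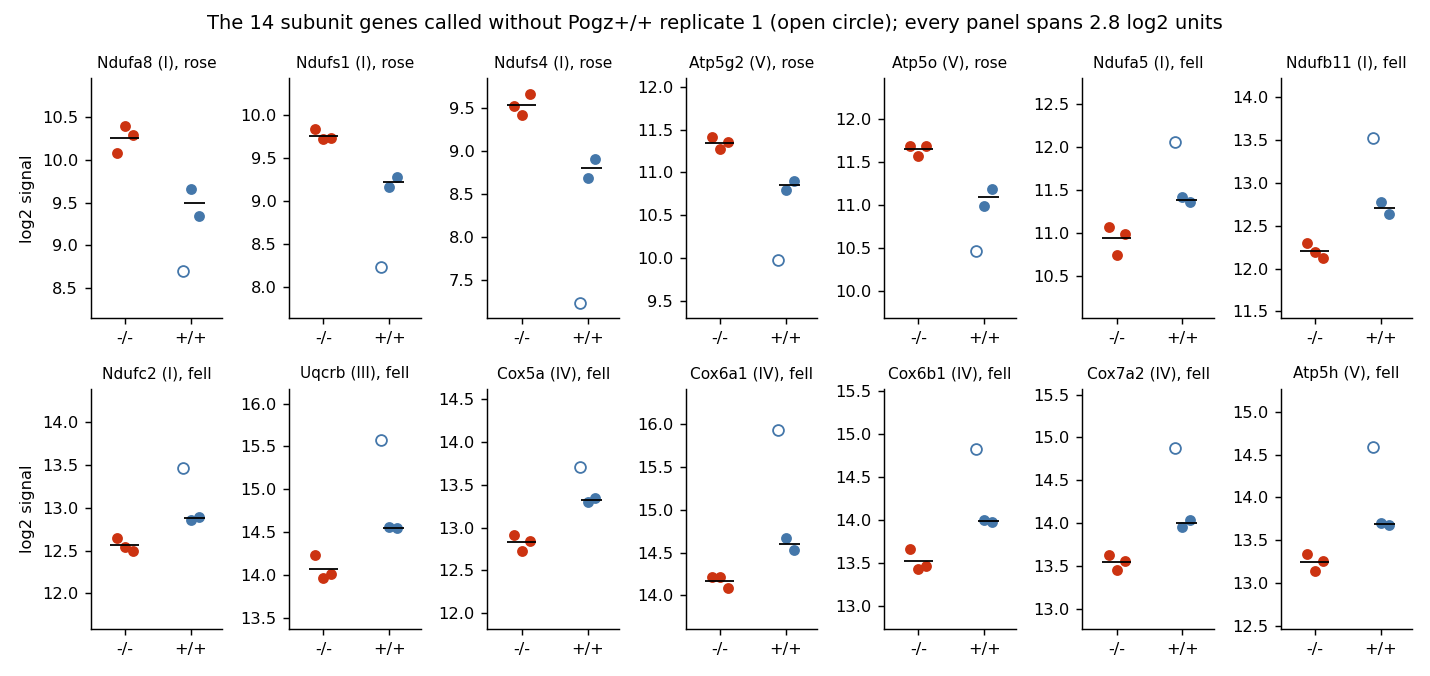
Log2 signal in each array of the 14 genes called without Pogz+/+ replicate 1, Pogz-/- arrays (red) left and Pogz+/+ arrays (blue) right, each panel spanning the same log2 range. Bars are means without the open circle, which is Pogz+/+ replicate 1. In all 14 genes that array lies beyond the other Pogz+/+ arrays, on the side away from Pogz-/-.

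In the members whose arrays did not overlap, replicate 1 was mostly the Pogz+/+ array farthest from Pogz-/-. Of the 15 members with all Pogz-/- arrays above, replicate 1 was the lowest array in 14, and of the 28 below, it was the highest in 28. For all genes these shares were 74.3% and 74.6%. The difference of replicate 1 from replicate 2 and the difference of the Pogz-/- mean from replicate 3, which have no array in common, had a correlation across the 82 genes of -0.41. With replicates 2 and 3 exchanged it was -0.38. Over all genes the correlations were -0.11 and -0.10, and over the 1820 brightest genes -0.53 and -0.52. These are across genes, which are not independent replicates.

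**Figure D3:**
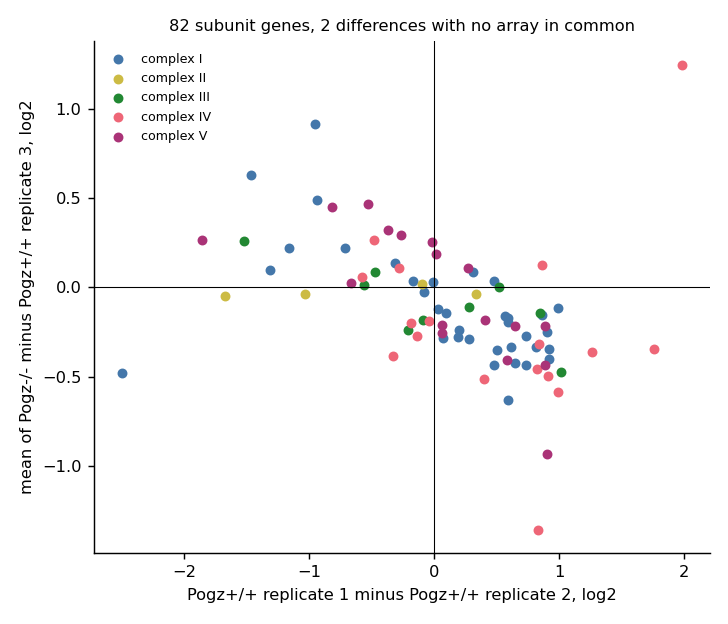
For each of the 82 genes, Pogz+/+ replicate 1 minus replicate 2 (x axis, log2) against the Pogz-/- mean minus Pogz+/+ replicate 3 (y axis, log2), coloured by complex. Genes high in replicate 1 tend to lie below 0 on the y axis (r = -0.41 across genes).

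The change also varied with signal. The 10 members with a mean log2 signal of 13 or more had a median of -0.44 without replicate 1, and 6 of them fell. All 130 genes of that signal had a median of -0.34, and 73 fell. At 11 to 13 the median was -0.13 for 42 members and -0.12 for 534 genes, and at 9 to 11 it was 0.11 for 18 members and 0.01 for 1884 genes. Under 9 it was again negative, -0.17 for 12 members and -0.11 for 15645 genes. After quantile normalization the brightest 10 members had a median of -0.12 and the 130 genes -0.04, and none of the 10 was called. The falls of Uqcrb, Cox6a1, Cox6b1, Cox7a2, Cox5a and Atp5h all belong to this brightest class.

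**Figure D4:**
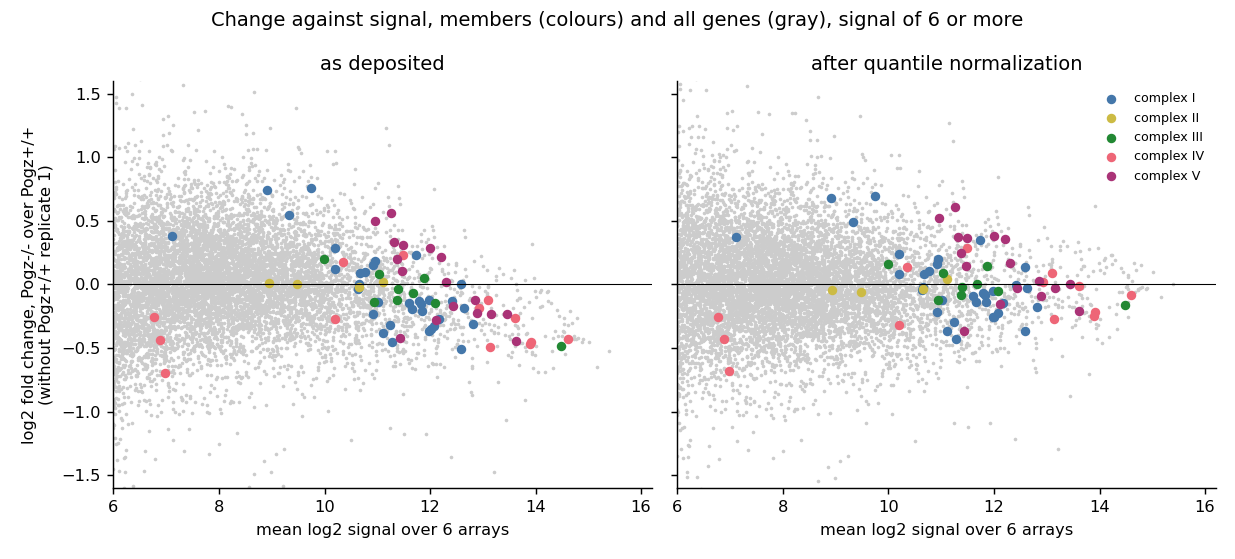
Log2 fold change (Pogz-/- over Pogz+/+, without Pogz+/+ replicate 1) against mean log2 signal over 6 arrays, for members (coloured by complex) and all genes (gray), as deposited (left) and after quantile normalization (right). As deposited the brightest members lie below 0 together with the other brightest genes (medians -0.44 and -0.34), and after quantile normalization they lie near 0.

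Different probe sets of the same gene often disagreed. The 48 members with several probe sets have 131 between them, and in 31 of the 48 the probe sets went in both directions without replicate 1. The brightest had a median of -0.16 and the other 83 a median of 0.02. Over all 165 probe sets of the members, tested among all probe sets, 11 rose and 11 fell, against 1.45% and 1.22% of all probe sets. Ndufc2 was called in both directions: its brightest probe set fell by 0.31 ± 0.07 (adjusted p = 0.0497) and a dimmer one rose by 0.89 ± 0.12 (adjusted p = 0.00394).

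Dimmer probe sets rose where the brightest did not pass in Ndufb5 (0.63 ± 0.13), Ndufs8 (0.77 ± 0.16), Ndufv2 (0.53 ± 0.10), Uqcrc2 (0.41 ± 0.09) and Atp5a1 (0.48 ± 0.08). Ndufs8 had 6 probe sets, 3 positive and 3 negative. Some genes were called in the same direction by 2 probe sets: Cox6b1 (-0.47 and -0.36), Cox5a (-0.49 and -0.43) and Ndufb11 (-0.51 and -0.53). Even so, the dimmest probe sets of Cox5a and Ndufb11 had 0.24 and 0.06. Ndufs4 and Atp5o rose only in their brightest probe set, and their next had 0.02 and 0.06.

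The disagreement went with the kind of probe set. In the array's naming, a plain _at ending marks probes designed to match a single transcript, and _a_at, _s_at and _x_at endings mark probes shared by several transcripts. Of the members' 82 plain probe sets 8 rose and 1 fell, with 58.5% positive. Of their 83 others 3 rose and 10 fell, with 34.9% positive. At a mean log2 signal of 9 or more, 6 of the members' 46 plain probe sets rose and 1 fell (67.4% positive). Of their 74 others at that signal, 3 rose and 10 fell (36.5% positive). Among all probe sets of that signal, 163 of 2043 plain rose and 105 fell (56.5% positive). Of the 1972 others, 118 rose and 285 fell (36.1% positive).

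**Figure D5:**
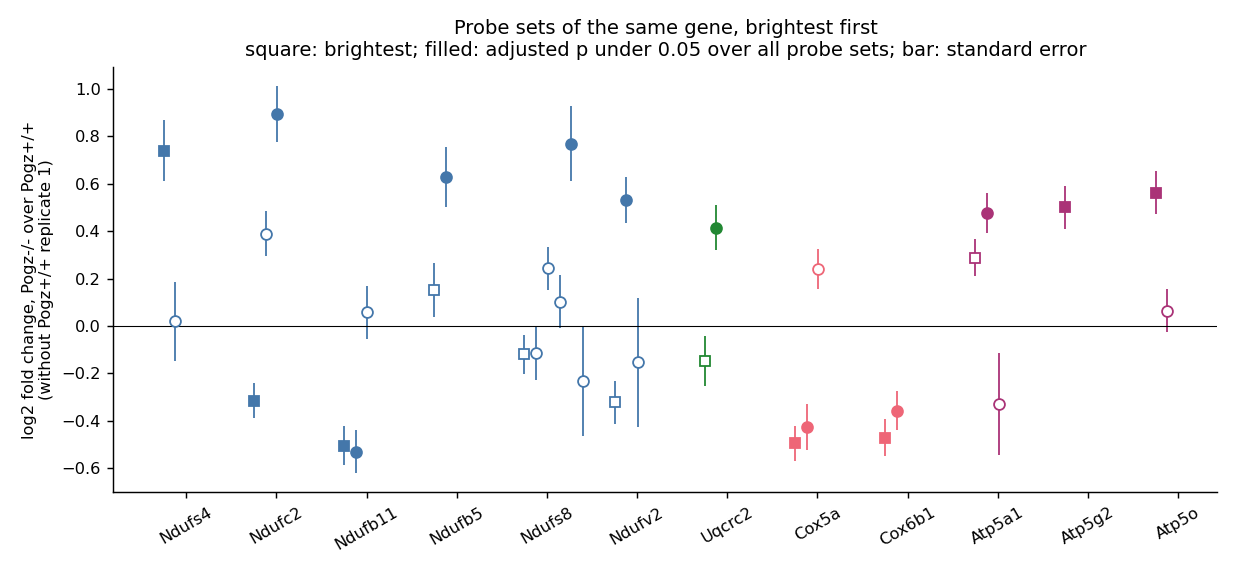
Log2 fold change (Pogz-/- over Pogz+/+, without Pogz+/+ replicate 1) with its standard error for each probe set of 12 genes, brightest first (square), leaving out those with a mean log2 signal under 6. Filled symbols passed an adjusted p under 0.05 over all probe sets. Ndufc2 has filled symbols on both sides of 0.

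The promoters of members that changed are shown because members of this group are known to share sites for NRF1 and for ETS-family factors such as GABP. RefSeq promoters (GRCm38.p6) were found for 66 of the 82 genes, and the 250 bases before the start were searched on both strands. GCGCANGCG (NRF1) was present in 18.2% of these genes, against 9.47% of the 14452 measured genes with a promoter. CCGGAAG (ETS) was in 18.2%, against 11.8%, AAGATGGCG (YY1) in 1.52%, against 1.04%, and GGGCGGG (SP factors) in 31.8%, against 39.8%. The NRF1 letters were in 2 of 4 members that rose, 3 of 8 that fell and 7 of 54 not called. A match is a description and not a bound site. Below are the 160 bases before the start of 2 genes that rose and 2 that fell, with matches that lie wholly within them in capitals.
Ndufa8 promoter, chr2:36049339-36049498, minus strand: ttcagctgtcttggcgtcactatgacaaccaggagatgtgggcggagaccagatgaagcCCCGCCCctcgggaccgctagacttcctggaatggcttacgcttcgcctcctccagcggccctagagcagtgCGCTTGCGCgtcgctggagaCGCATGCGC
Atp5g2 promoter, chr15:102671048-102671207, minus strand: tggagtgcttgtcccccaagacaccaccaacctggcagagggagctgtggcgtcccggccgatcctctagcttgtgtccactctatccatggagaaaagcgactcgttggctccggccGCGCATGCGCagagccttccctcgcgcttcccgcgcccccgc
Cox6a1 promoter, chr5:115348959-115349118, minus strand: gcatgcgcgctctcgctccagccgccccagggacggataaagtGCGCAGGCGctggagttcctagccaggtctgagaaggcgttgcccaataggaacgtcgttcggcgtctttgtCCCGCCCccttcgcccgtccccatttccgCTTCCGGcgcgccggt
Atp5h promoter, chr11:115419920-115420079, minus strand: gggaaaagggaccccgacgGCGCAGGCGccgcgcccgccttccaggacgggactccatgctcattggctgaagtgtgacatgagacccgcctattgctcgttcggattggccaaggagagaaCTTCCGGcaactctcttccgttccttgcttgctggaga

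In Ndufa8 the capitals are 1 SP and 2 NRF1 matches, and in Atp5g2 2 overlapping NRF1 matches. In Cox6a1 they are 1 NRF1, 1 SP and 1 ETS match, and in Atp5h 1 NRF1 and 1 ETS match. Further NRF1 matches of Cox6a1, starting at -162 and -161, begin before the printed stretch and run into its lower-case left end. Genes of both directions thus hold the NRF1 letters. The same stretches of Ndufs4, Atp5o, Cox5a, Cox7a2 and Ndufb11 hold none of the 4 motifs.

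The genes around the complexes were mixed as well. Of 9 other respiratory chain proteins measured, 2 rose and 2 fell without replicate 1, against 2.41% and 2.07% of all genes. Ndufab1, the mitochondrial acyl carrier protein and a complex I subunit, had 11.38, 11.47 and 11.66 in Pogz-/- livers and 10.22, 10.83 and 11.04 in Pogz+/+ livers, a rise of 0.57 ± 0.11 (limma adjusted p = 0.0128). Cyct, the testis form of cytochrome c, had 5.68, 6.77 and 7.21 in Pogz-/- livers and 3.84, 4.11 and 3.49 in Pogz+/+ livers. Its rise of 2.76 ± 0.48 (adjusted p = 0.00866) was larger than that of any called member, from a dim signal, and replicate 1 was not apart from the other Pogz+/+ arrays. The somatic form Cycs fell by 0.43 ± 0.07 (adjusted p = 0.00812) and the ATP synthase inhibitor Atpif1 by 0.39 ± 0.07 (adjusted p = 0.0142), and neither passed after quantile normalization.

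Of 48 assembly factors, Coa3, a factor for complex IV, rose by 0.44 ± 0.10 and Cmc2, also linked to complex IV, fell by 0.66 ± 0.10. Coa3 did not pass after quantile normalization (0.41, limma adjusted p = 0.0587). With centring 10 of the 48 rose and 1 fell, against 10.1% and 0.55% of all genes. Cmc2 kept its fall after quantile normalization (-0.67, limma adjusted p = 0.00609) and after centring (-0.39, adjusted p = 0.0448). Of 16 tricarboxylic acid cycle enzymes, 3 rose: Idh3a (0.54 ± 0.11), a subunit of isocitrate dehydrogenase, Dlst (0.66 ± 0.14), of the oxoglutarate dehydrogenase complex, and Dld (0.80 ± 0.15), which several dehydrogenase complexes share. All 3 also rose after quantile normalization. Citrate synthase, Cs, fell by 0.31 ± 0.08 as deposited only. In that fit 1 of the 48 rose and 1 fell, and 3 of the 16 rose and 1 fell. Of all genes, 2.41% rose and 2.07% fell. None of 17 regulators of mitochondrial gene expression, among them Nrf1, Gabpa and Tfam, passed as deposited or after quantile normalization, and 2 rose with centring: Gabpa (0.75, adjusted p = 0.00364) and Pprc1 (0.65, adjusted p = 0.0193).

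Erythroid markers moved beside these genes. In 5 of 6 measured, all Pogz-/- arrays were below all Pogz+/+ arrays, and 4 fell without replicate 1, among them the band 3 anion exchanger Slc4a1, by 0.69 ± 0.07 (limma adjusted p = 0.000902). Of all genes, 16.3% were below, 2.07% fell and 2.41% rose. The 4 that fell had log2 signals of 12.59 or more in every array. Of the 130 genes with a mean log2 signal of 13 or more, 95 were below and 73 fell. At 11 to 13, 209 of 534 genes were below and 98 fell. After quantile normalization Slc4a1 alone of the 6 fell (-0.42, adjusted p = 0.00609). Their summed intensity was 37447 to 40674 in Pogz-/- arrays and 55198 to 79419 in Pogz+/+ arrays. Of 6 hepatocyte and hepatoblast markers 1, Afp, fell as deposited but not after quantile normalization (adjusted p = 0.29), and the sum was 16858 to 26868 in Pogz-/- arrays and 27415 to 50351 in Pogz+/+ arrays. Of 8 granulocyte markers 4 rose, and 3 after quantile normalization, with Camp at 1.09 ± 0.12 (limma adjusted p = 0.000902). In 3 of the 8 all Pogz-/- arrays were above all Pogz+/+ arrays. In 1, S100a8, all were below (-0.26 ± 0.08 without replicate 1, no call). The sums of the 8 overlapped at 43979 to 50065 in Pogz-/- arrays and 44409 to 78622 in Pogz+/+ arrays. The part of all these markers in the values of the subunit genes was not tested. The members took 4.17% to 4.50% of the summed gene signal in Pogz-/- arrays and 4.52% to 5.50% in Pogz+/+ arrays (exact permutation test, two-sided, p = 0.1).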

How the data were processed

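RNA of 3 Pogz-/- and 3 Pogz+/+ FLs was measured on one array each, about 100 ng being labelled by 3' in vitro transcription. The deposited values are linear intensities, which the authors produced with Affymetrix Expression Console (version and algorithm not given in the sources used here), with the same 2% trimmed mean, 150, in every array and no quantile normalization. Precision is limited by the number of arrays.

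Log2 was taken with no pseudocount. Without 64 control probe sets, 45037 remained for testing: 34945 name 1 gene, 932 several and 9160 none in the platform annotation. The probe set with the highest mean represented each of 18193 genes. limma 3.58.1 (R 4.3.3; lmFit, eBayes, genotype only, two-sided) was fitted across all genes with Benjamini-Hochberg adjustment, and a gene rose or fell at an adjusted p under 0.05. The code was tested on simulated data. Quantile normalization and centring were done over all probe sets.

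The members and lists were chosen with earlier results of these data known. Named genes were those with the largest moderated t or lowest change in each complex, catalytic subunits, paired isoforms and every member called without Pogz+/+ replicate 1 with trend and robust; others are said to be chosen after their values were seen. Alternatives were quantile normalization, centring, trend and robust, leaving out each array, the replicate number as a block, a filter on dim probe sets (mean log2 of 6), 16 added before log2, a Y-linked covariate, the mean of all probe sets per gene, a 1.5-fold limit and the methods' t-test. 6 combinations of these were added after the data were examined. Promoter sequences are from RefSeq (GRCm38.p6). Some items are not reported here.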

Additional observations from a re-analysis of the deposited data

How the results depend on the processing

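No member was called under any fit that kept all 6 arrays (limma plain or with trend and robust, with or without other scalings, the filter, 16 added, the Y-linked covariate or the mean of probe sets), nor when any array other than Pogz+/+ replicate 1 was left out. The replicate block gave 0 calls, plain or with trend and robust. Deviations of arrays with the same number from their group means correlated at 0.004, -0.009 and -0.013. The Pogz+/+ means include the outlying replicate 1, so these values cannot decide whether the numbers pair the samples. Calls appeared only without Pogz+/+ replicate 1 and with trend and robust, where 2 Pogz+/+ arrays limit the estimate of their spread: 5 rose and 9 fell as deposited, 9 and 2 after quantile normalization, 16 and 0 after centring, 8 and 15 with the filter on dim probe sets (8.26% and 6.79% of all genes kept), 2 and 2 with the mean of all probe sets (0.638% and 0.379% of all genes), and 2 and 0 at 1.5-fold or more. The causes were not tested, except that the filter leaves 8399 genes to adjust over.

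The median of the members, -0.15, became -0.069 with the mean of all probe sets, -0.069 after quantile normalization and 0.31 after centring, and -0.25 to -0.12 when one array was left out. Without Pogz+/+ replicate 1 it was -0.024 with the mean of probe sets, -0.031 after quantile normalization and 0.15 after centring. Of the 15 members above and 28 below, quantile normalization left 18 below, the mean of probe sets 17 below, and centring gave 30 above and 7 below. Leaving out one array gave 15 to 19 above and 28 to 37 below.

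Of 49 named genes, 28 kept their sign in all 28 settings. The other signs turned as follows, on the log2 scale. With centring over 6 arrays (plain or trend and robust alike), values were 0.17 for Ndufs8, 0.31 for Ndufv1, 0.33 for Sdha, 0.18 for Cyc1, 0.091 for Uqcrc2, 0.35 for Cox4i1, 0.0035 for Cox6a2, 0.33 for Cox6b2, 0.36 for Cox7a2l, 0.42 for Cox8b, 0.20 for Atp5g3 and 0.090 for Atp5d. With quantile normalization over 6 arrays they were 0.16 for Cox4i1, 0.43 for Cox8b and 0.076 for Atp5g3. With the mean of probe sets they were 0.024 for Ndufb6, 0.67 for Ndufc2, 0.13 for Ndufs8, -0.27 for Sdhd, 0.21 for Uqcrc2 and -0.034 for Atp5a1. Cox8b had 0.25 with 16 added and 0.059 with the Y-linked covariate, where Ndufa4l2 had -0.61. Without Pogz+/+ replicate 1, Cox7a2l had 0.17, with the filter too.

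Without that array, the mean of probe sets gave 0.011 for Ndufb6, 0.59 for Ndufc2, 0.034 for Ndufs7, 0.11 for Ndufs8, 0.019 for Ndufv2, -0.015 for Sdhc, -0.26 for Sdhd, 0.13 for Uqcrc2 and 0.039 for Cox7a2l. Centring gave 0.15 for Ndufs8, 0.14 for Ndufv1, 0.25 for Sdha, 0.24 for Cyc1, 0.13 for Uqcrc2, 0.088 for Cox4i1, 0.45 for Cox7a2l, 0.19 for Cox8b, 0.037 for Atp5g3 and 0.10 for Atp5d. Quantile normalization gave -0.044 for Sdhc, -0.058 for Sdhd, 0.015 for Cox4i1, 0.13 for Cox7a2l, 0.21 for Cox8b and 0.0065 for Atp5g3. Leaving out Pogz-/- replicate 1, 2 or 3 or Pogz+/+ replicate 2 (plain or with trend and robust) turned Ndufa4l2 (-0.16, -0.15 and -0.092), Sdhb (-0.042), Cox6a2 (0.059), Cox7a2l (0.0015) and Cox8b (0.95, 0.27 and 0.16). Over all arrays left out in turn, Ndufa4l2 ran over -0.16 to 1.17, Sdhb over -0.042 to 0.11, Cox6a2 over -0.74 to 0.059, Cox7a2l over -0.26 to 0.17 and Cox8b over -1.33 to 0.95.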
